A study of Mus musculus with 2 samples.

Results

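The genes described here are the nuclear genes for the respiratory chain of mitochondria and for ATP synthase, with the factors that assemble them, in the liver of mouse embryos at day 14.5. Members were the rows whose mouse Ensembl ID carries a protein-coding symbol that starts with Nduf, Sdha, Sdhb, Sdhc, Sdhd, Uqcr or Atp5, or with Cox and a digit, leaving out symbols that contain -ps. By this rule 106 of the 43346 mouse gene rows were members, out of 21474 protein-coding rows. They comprised 36 subunits of complex I, 4 of complex II, 8 of complex III, 18 of complex IV and 16 of complex V, together with 21 assembly factors and 3 related genes. The rule itself uses no measured value, although the members were chosen with earlier results of these data known.

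Complex I oxidizes NADH and complex II oxidizes succinate, and both reduce ubiquinone. Complex III passes the electrons on to cytochrome c, complex IV passes them to oxygen, and complexes I, III and IV move protons out of the matrix. Complex V, the ATP synthase, lets the protons back in and makes ATP. Complex II is encoded wholly in the nucleus, whereas the other complexes also hold subunits encoded in mitochondrial DNA. Several small subunits of complex IV exist as paralogues, a widely used form and a form known from muscle, lung or testis. The liver of the midgestation embryo contains immature hepatocytes and is also a site of red cell formation.

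Total RNA was sequenced from 2 livers, 1 library each, which form 1 group. Both came from embryos of strain B6NCrl, with no treatment given and different collection days, and the labels describe each sample both as 1 liver and as of mixed sex. There was no second group, so every comparison below is between genes or between the 2 livers, and no test was made. Expected counts on mouse genes totalled 37059776 in replicate 1 and 26908926 in replicate 2, of 39998450 and 28848861 in the whole tables. Hepatocyte and red cell markers were present: Afp, encoding alpha-fetoprotein, had a mean of 6637 TPM and Alas2, the heme synthesis enzyme of red cells, 822 TPM. In such bulk tissue, fewer cells of a type and less RNA per cell cannot be told apart. TPM is each gene's share of transcripts after scaling by length, so that levels of different genes can be set side by side.

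Subunit transcripts formed an abundant class and those of assembly factors a much less abundant one. Of the 106 members, 101 reached 1 TPM in both livers, against 49.2% of all protein-coding genes. A mean of 100 TPM or more was reached by 70 of the 106, against 3.86% of protein-coding genes. The members held 2.63% ± 0.01 (SD, n = 2) of the summed TPM of mouse genes. The median subunit of complex I lay at 165.8 TPM in replicate 1, against 168.1 TPM in the other liver. For complex II the medians were 140.7 and 153.4 TPM, and for complex III 348.5 and 357.7 TPM. Complex V had the highest median with all subunits counted, at 382.4 and 385.6 TPM. The median of complex IV was 318.9 and 307.2 TPM over its 18 genes, but 521.4 and 491.5 TPM over the 11 that remain without the 7 tissue paralogues, which placed it above complex V. Assembly factors had medians of 19.2 and 24.2 TPM. The order of the groups was the same in both livers, and the place of complex IV beside III and V depended on the paralogues counted.

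**Figure D1:**
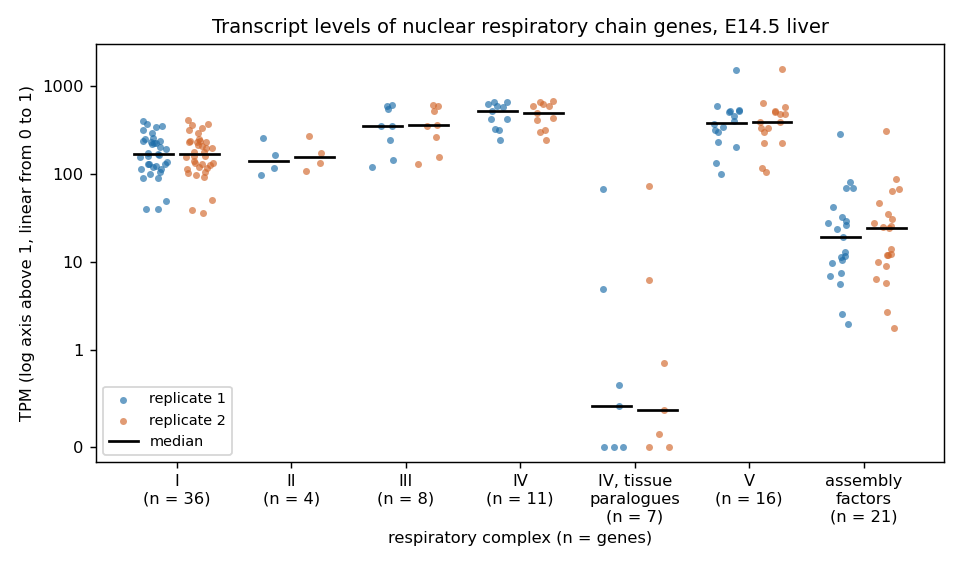
TPM of each member (points) in replicate 1 (blue) and replicate 2 (orange), grouped by respiratory complex, with the median of each group as a black bar; the axis is logarithmic above 1 TPM and linear below, and the 3 related genes are not drawn. Subunits of complexes I to V lie mostly above 100 TPM, the assembly factors mostly below, and the tissue paralogues of complex IV mostly below 10 TPM.

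In complex I the catalytic core had a lower median TPM than the accessory subunits that surround it. The 7 nuclear core subunits had medians of 127.5 and 131.6 TPM, and the 29 accessory subunits 174.2 and 178.4 TPM. The core range lay within the accessory range. Median effective length was 977 bases for the core and 552 for the accessory subunits, and the part of length was not tested. Within the core, Ndufs7, which carries the last iron-sulfur cluster before ubiquinone, was highest at 221.9 and 234.2 TPM. Ndufs1, the largest iron-sulfur subunit, was lowest at 89.0 and 101.0 TPM. Ndufv2 and Ndufv1, partners in the NADH-binding tip, were at 216.5 ± 2.5 and 132.8 ± 7.5 TPM (SD, n = 2), so the former exceeded the latter 1.63-fold ± 0.11. Accessory subunits spanned a wider range than the core. Ndufc1, a small protein of the membrane arm, led with 403.6 and 408.0 TPM. Ndufa6, which belongs to the LYR-motif proteins, followed at 365.3 and 363.2 TPM. Ndufab1, the mitochondrial acyl carrier protein, was at 345.9 and 366.3 TPM. All 3 exceeded the highest core subunit in both livers with all transcripts counted. Counting protein-coding transcripts only, Ndufc1 was at 203.67 and 214.55 TPM and Ndufab1 at 162.19 and 180.19 TPM. Ndufs7 was then at 212.03 and 231.43 TPM, and of the 3 only Ndufa6 exceeded it. At the other end were Ndufs4, an accessory subunit of the matrix arm, at 48.8 and 50.6 TPM, and Ndufa11, of the membrane arm, at 40.1 and 39.1 TPM. Ndufb4, another membrane arm subunit, was listed lowest of the 36, at 40.0 and 35.6 TPM.

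The place of Ndufb4 is uncertain, because a second row carries the same coding sequence. Ndufb4 lies on chromosome 16 (mm10, chr16:37647170-37654453, minus strand), and Ndufb4c lies on chromosome 15 (chr15:73809507-73809896, minus strand), where GENCODE annotates a processed pseudogene, so that the rule left it out. The 2 annotated sequences were identical over all 390 coding bases, and both read through to the same protein of 129 residues. The first 150 bases, shown because reads from them cannot be assigned to 1 locus by sequence, are the same in both and are therefore printed once, with no capitals since no base differs.
Ndufb4 and Ndufb4c, bases 1 to 150: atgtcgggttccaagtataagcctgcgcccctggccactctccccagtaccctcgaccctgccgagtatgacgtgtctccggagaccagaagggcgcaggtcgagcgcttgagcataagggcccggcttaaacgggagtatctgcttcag
Ndufb4c was listed at 252.5 and 234.8 TPM, with 3073 and 1986 estimated reads. It held 86.3% and 86.8% of the TPM of the pair, whose sum was 292.5 and 270.4 TPM. Of the estimated reads of the pair, Ndufb4c held 76.1% and 76.2%. The sum of TPM lies among the upper subunits of complex I, but it joins values scaled to unlike lengths. Ndufb4c is 390 bases long, and Ndufb4 was listed at 677 and 699 bases. The sum is thus higher than the level that moving the reads to Ndufb4 would give, which was not computed. The most abundant listed transcript of Ndufb4 itself was one with a retained intron, at 55.9% ± 3.1 of the gene's TPM (SD, n = 2). How the reads divide between the 2 loci was not tested.

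All 4 subunits of complex II were above 90 TPM, and the small membrane anchor Sdhd was the most abundant. Sdhd was at 253.2 and 266.6 TPM, and Sdhc, the other anchor that holds heme and ubiquinone, at 117.6 and 133.2 TPM. Sdhb, the iron-sulfur subunit, was at 163.8 and 173.6 TPM. Sdha, the flavoprotein that oxidizes succinate, was lowest at 97.0 and 107.5 TPM. Although the 4 proteins occur once each in the complex, the Sdhd transcript exceeded that of Sdha 2.55-fold ± 0.09 (SD, n = 2). The order of the 4 genes was the same in both livers.

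In complex III the small subunits stood far above the large ones. Uqcr10 and Uqcr11 encode small membrane-spanning proteins. Uqcr10 was at 609.9 and 597.6 TPM and Uqcr11 at 594.4 and 605.8 TPM, so the order of the 2 genes differed between the livers. Uqcrq was next at 550.2 and 516.3 TPM. The hinge protein gene Uqcrh and Uqcrb were at 355.7 ± 8.7 and 350.6 ± 4.3 TPM, again within their spread. The 3 lowest were the large subunits. Uqcrc1 was at 241.8 and 261.0 TPM, and Uqcrc2, its partner in the matrix-facing core, at 119.5 and 128.3 TPM. Uqcrfs1, the Rieske iron-sulfur protein, was at 145.3 and 155.7 TPM. Cytochrome c1, encoded by Cyc1 and outside the symbol rule, was at 198.9 and 212.2 TPM, between Uqcrfs1 and Uqcrc1. Across the 75 subunits of the 5 complexes that are not tissue paralogues of complex IV, mean TPM fell as effective length rose, with a Spearman's rho of -0.51. These 75 genes share the same 2 libraries and the same length scaling, in which the effective length was 99 bases below the listed length, so this is given as a description across genes.

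Where complex IV subunits have paralogues, the widely used form held most of the family's TPM, from 81.7% ± 0.7 for Cox7a2 and 90.5% ± 0.5 for Cox6b1 (SD, n = 2) to over 99% for Cox4i1, Cox6a1, Cox7b and Cox8a. The family of Cox7a2 was counted with the related gene Cox7a2l, which held 16.9% ± 0.5, while the muscle form Cox7a1 held 1.43% ± 0.24. Cox8a, a small membrane subunit, was at 661.3 and 670.2 TPM. Cox6b1, the subunit on the intermembrane side where the dimer meets, was at 660.1 and 661.7 TPM, and Cox6a1, also at the dimer contact, at 596.2 and 624.3 TPM. Ndufa4, first assigned to complex I and since placed in complex IV, was at 626.6 and 590.7 TPM, close to these subunits and above every subunit of complex I. Cox7a2 was at 316.8 and 316.2 TPM and Cox7b at 320.9 and 298.3 TPM, both in the lower range of the complex. Cox5a was the lowest of the 11 at 241.5 and 244.1 TPM. The highest of the 11 thus exceeded the lowest 2.74-fold, against 10.7-fold over the 36 of complex I and 15.1-fold over the 16 of complex V. The lowest of those 2 complexes were Ndufb4 and Atp5g2, whose levels are uncertain because pseudogene rows share their sequence. The upper quartile exceeded the lower 1.67-fold in complex IV, 1.96-fold in complex I and 1.81-fold in complex V.

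Among the paralogues known from other tissues, 6 of 7 were below 7 TPM in both livers. Cox7b2 and Cox8c, known from testis, had 0 reads in both livers. The limit that a count of 0 allows, taken as 3 reads, was 0.162 and 0.233 TPM for Cox7b2 and 0.190 and 0.274 TPM for Cox8c. Cox8b, a muscle form, had 0 reads in replicate 1 and 1 read in replicate 2. Cox4i2, an oxygen-responsive form known from lung, was at 0.42 and 0.38 TPM from 11 and 7 reads, against 575.9 and 592.8 TPM for Cox4i1. Cox6a2, the heart and skeletal muscle form, was at 0.64 and 0.86 TPM from 15 and 14 reads. Cox7a1, the muscle form of Cox7a2, reached 4.87 and 6.23 TPM from 54 and 48 reads, or 1.43% ± 0.24 of the family's TPM (SD, n = 2). The summed TPM of 11 heart and skeletal muscle markers was 1.22 and 1.00, with Myl2 and Myog at 0 in both livers, and that of 8 pericyte and stellate cell markers was 6.51 and 6.40. Their part in the low levels of these paralogues was not tested.

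Cox6b2 was the exception. Known from testis, it was at 66.7 and 72.1 TPM, from 1157 and 854 reads, and held 9.50% ± 0.46 (SD, n = 2) of the transcripts of the Cox6b pair. Cox6b1 exceeded it 9.54-fold ± 0.51. The 95% Poisson intervals, which cover counting error only, ran from 62.9 to 70.6 TPM in replicate 1 and from 67.4 to 77.1 TPM in replicate 2, and so overlapped. Cox6b2 lies at chr7:4751792-4753094 on the minus strand of mm10. None of its exon bases fell in exons of another gene, and no window of 100 bases of its leading transcript occurred in another gene. The 2 proteins share 47 residues in an alignment of 88. Germ cell and testis markers summed to 0.34 and 0.53 TPM over 6 genes, with none reaching 1 TPM in both livers and Tnp1 at 0 in both. The Cox6b2 reads were spread over several transcripts, of which the leading one held 46.9% ± 3.3.

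**Figure D2:**
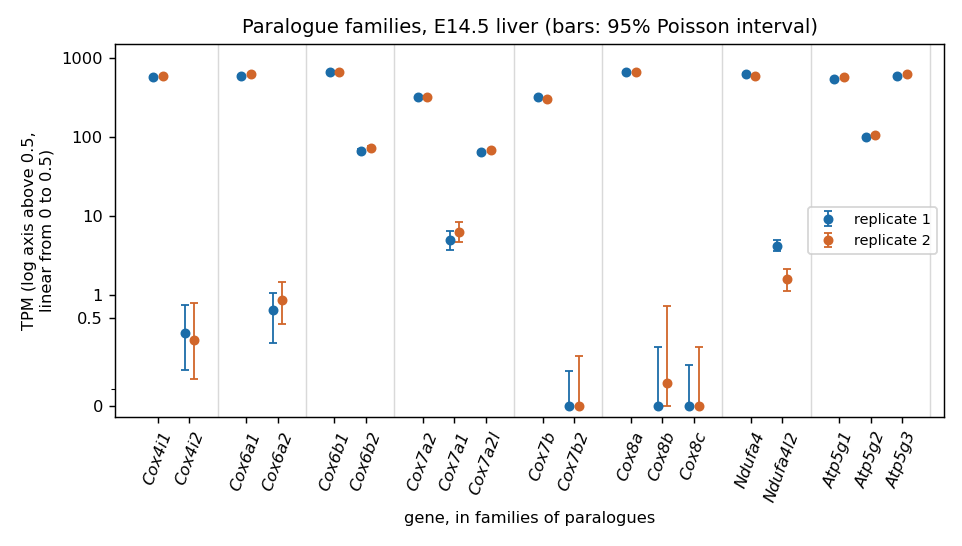
TPM of each paralogue in replicate 1 (blue) and replicate 2 (orange), by family, with 95% Poisson intervals of the reads as bars; the axis is logarithmic above 0.5 TPM and linear below. Cox6b2 near 70 TPM stands above the other tissue paralogues of complex IV. The 2 intervals do not overlap for 6 of the 19 genes, Ndufa4l2 and the abundant Cox6a1, Cox7b, Ndufa4, Atp5g1 and Atp5g3. The share over all genes was not computed, so this count does not set the paralogues apart.

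Related members of these families behaved differently from each other. Cox7a2l, which helps join complexes III and IV into supercomplexes, was at 63.9 and 67.3 TPM, 16.9% ± 0.5 of the TPM of its family (SD, n = 2). Ndufa4l2, an oxygen-responsive relative of Ndufa4, was at 4.19 TPM from 151 reads in replicate 1 and at 1.56 TPM from 39 reads in replicate 2. Its Poisson intervals were 3.55 to 4.92 and 1.11 to 2.13 TPM. These did not overlap, which was also true of 5 abundant paralogues, Cox6a1, Cox7b, Ndufa4, Atp5g1 and Atp5g3, whose livers differed by 1.05 to 1.08 times against 2.69 times for Ndufa4l2. How often such intervals fail to overlap over all genes was not computed. Ndufa4l2 was the only 1 of the 106 members that differed by 1.5 times or more when no filter on low values was set, against 1.20% of all mouse rows. Many of those rows are at or near 0 TPM, and the count does not set the members apart. Ndufa4l2 did not reach the mean of 10 TPM required elsewhere.

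Complex V was led by Atp5b, the catalytic beta subunit, the most abundant member of all. Atp5b was at 1504 and 1577 TPM, and Atp5a1, the alpha subunit that alternates with it in the catalytic ring, at 458.8 and 482.5 TPM. The ratio was 3.27 ± 0.01 (SD, n = 2), although alpha and beta proteins occur in equal number in the enzyme. Part of this distance lay in short transcripts without a coding sequence. Counting protein-coding transcripts only, Atp5b was at 889.3 and 975.8 TPM and Atp5a1 at 381.9 and 411.7 TPM, a ratio of 2.35 ± 0.03. Atp5c1, the rotating gamma subunit, was at 318.6 and 335.4 TPM. Atp5d, the delta subunit of the central stalk, was at 203.0 and 222.0 TPM, and Atp5e, the epsilon subunit beside it, at 393.8 and 383.7 TPM. The 11 subunits of the membrane part and the outer stalk had medians of 371.0 and 387.5 TPM.

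The c subunit, which forms the rotor ring in the membrane, is made from 3 genes. Atp5g1, Atp5g2 and Atp5g3 lie on chromosomes 11, 15 and 2 (mm10, chr11:96068852-96075670, chr15:102662864-102672352 and chr2:73908447-73911326, all on the minus strand). Their last 78 residues, which contain the mature ring protein, were the same in all 3, while the preceding import sequences of 58, 68 and 63 residues were not. The 234 bases that encode these residues differed at 63 positions. The last 150 of these bases are printed to show that reads can still be told apart within an identical protein, with capitals at the 39 positions where the 3 genes are not all alike.
Atp5g1: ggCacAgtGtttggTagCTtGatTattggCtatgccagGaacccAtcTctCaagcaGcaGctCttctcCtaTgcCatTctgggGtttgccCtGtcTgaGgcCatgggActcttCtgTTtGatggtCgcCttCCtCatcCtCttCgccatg
Atp5g2: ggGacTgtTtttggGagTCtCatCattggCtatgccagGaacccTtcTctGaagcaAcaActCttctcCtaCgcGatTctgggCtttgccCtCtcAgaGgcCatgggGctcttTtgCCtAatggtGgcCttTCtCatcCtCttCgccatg
Atp5g3: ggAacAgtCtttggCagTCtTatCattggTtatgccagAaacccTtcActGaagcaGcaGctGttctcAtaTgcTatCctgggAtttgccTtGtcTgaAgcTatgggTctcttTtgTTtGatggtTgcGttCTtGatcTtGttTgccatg
Over the 234 bases, Atp5g1 and Atp5g2 differed at 36 positions, Atp5g1 and Atp5g3 at 50, and Atp5g2 and Atp5g3 at 53, with longest identical stretches of 20, 11 and 8 bases. Atp5g3 was listed at 597.5 and 630.8 TPM, Atp5g1 at 536.1 and 573.5 TPM, and Atp5g2 at 99.6 and 105.0 TPM. The shares of the family were 48.3% ± 0.2, 43.6% ± 0.2 and 8.05% ± 0.04 (SD, n = 2). Atp5g3 exceeded Atp5g1 in both livers by 1.11-fold ± 0.01, and Atp5g2 was the lowest subunit of complex V.

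Processed pseudogenes nevertheless limit what can be said of 2 of the c subunit genes and of Atp5l, the g subunit of the membrane part. Of the 100-base windows of the leading Atp5g2 transcript, 86.4% also occurred in another gene, mostly in Gm10175, which was listed at 137.3 and 122.6 TPM, above Atp5g2 itself. For Atp5g1 the share was 57.3%, and its partner Gm10039 was at 64.9 and 53.2 TPM. The TPM of these partners was then added to that of their genes. Atp5g1 held 41.9% and 42.2% of the family in these sums, Atp5g2 16.5% and 15.3%, and Atp5g3 41.6% and 42.5%. The order of Atp5g1 and Atp5g3 in the sums was not the same in both livers. Each TPM is scaled to the length of its own row, and the pseudogene rows are shorter. The sums are thus higher than the levels that moving the reads to the member would give. Shares and order with the reads moved were not computed. Atp5l shared 61.3% of its windows with other genes. It was listed at 133.7 and 117.0 TPM, while the pseudogene Gm10221 was listed at 602.9 and 567.7 TPM. Atp5l was also the member with the largest posterior SD of its estimated count, at 5.47% of the count. Over all members, 11 of 106 shared more than 20% of these windows with another gene, and 83 shared none. The share over all genes was not computed, so this count describes the members only.

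**Figure D3:**
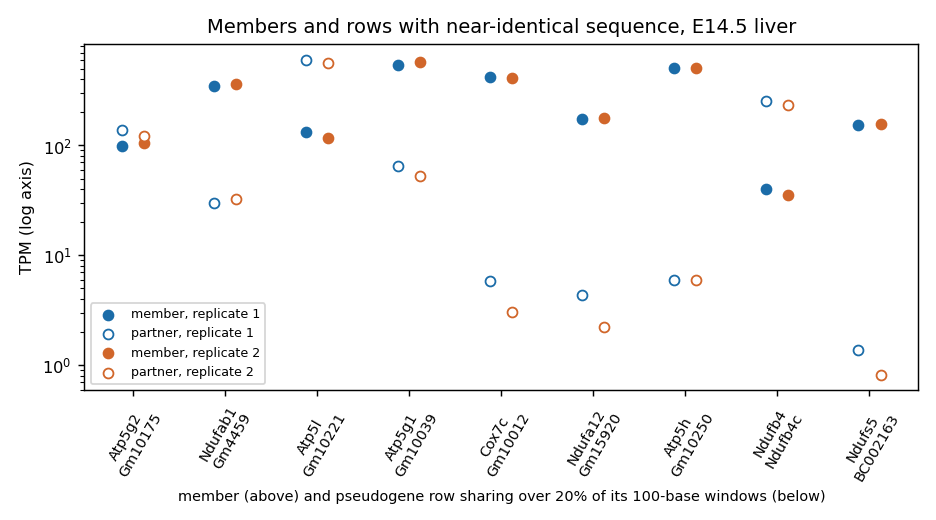
TPM on a logarithmic axis of the members that share over 20% of their 100-base windows with a pseudogene row (filled points) and of that row (open points), in replicate 1 (blue) and replicate 2 (orange). The pseudogene row is listed above the member for Atp5g2, Atp5l and Ndufb4, and below it for the other 6.

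Assembly factors, which help build the complexes and are not part of them, had a median far below those of the subunits, although the ranges overlapped. Cox17, Cox20, Cox14 and Cox16 stood above the lowest complex I subunits Ndufs4, Ndufa11 and Ndufb4. Cox17, the copper chaperone of complex IV, was at 286.1 and 303.0 TPM. Cox20, which guides a mitochondrially encoded subunit, was at 79.6 and 87.9 TPM, and Cox14, an early factor of complex IV, at 69.3 and 66.8 TPM. Cox20 shares 91.1% of its exon bases with Hnrnpu on the other strand, and no source states whether reads were counted by strand, so its level is uncertain. The 3 lowest factors lay below 6 TPM. Sdhaf3 was at 1.93 and 1.75 TPM, Cox15, a heme a synthesis enzyme, at 2.54 and 2.66 TPM, and Sdhaf1, which helps insert iron-sulfur clusters into complex II, at 5.50 and 5.71 TPM. Medians by target were 24.7 and 25.3 TPM for the 8 factors of complex I, 8.35 and 8.85 TPM for the 4 of complex II, and 12.96 and 14.06 TPM for the 9 of complex IV. Sdhaf1 also overlapped an opposite-strand gene over 69.6% of its exon bases. In all, 8 of the 106 members had over 20% of their exon bases in exons of another gene, and the share over all genes was not computed.

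Assembly factors with other symbols lay in the same low range. All 8 further factors of complex I were at 1 TPM or more in both livers, with medians of 10.6 and 11.4 TPM, and so were the 6 of complex III, with medians of 14.4 and 16.2 TPM, and the 4 of complex V, with medians of 24.8 and 26.2 TPM. Of the 12 of complex IV, 11 reached 1 TPM in both livers, and Pet117 did not, at a mean of 0.515 TPM. Uqcc2, a factor of complex III, was the highest of these lists at a mean of 168.5 TPM. ATP synthase proteins under other symbols were abundant. Atpif1, the inhibitor of the enzyme, was at 1480 and 1497 TPM, close to Atp5b, and Usmg5, a small membrane subunit, was at 827.4 and 786.5 TPM.

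The 13 subunits encoded in mitochondrial DNA together held about as much TPM as the 106 nuclear members. Their sum was 24153 and 24365 TPM, against 23552 and 23795 TPM. By complex, the median mitochondrial gene exceeded the median nuclear subunit 1.90-fold and 1.89-fold in complex I, over 7 mitochondrial genes. In complex III mt-Cytb alone exceeded that median 6.62-fold and 7.05-fold. The excess was 6.79-fold and 5.37-fold in complex IV, over 3 mitochondrial genes, and 15.6-fold and 16.1-fold in complex V, over 2. The mt-Atp6 gene was highest, with a mean of 7225 TPM. Cytochrome c, the soluble carrier between complexes III and IV, was at 37.1 and 34.7 TPM from Cycs, while the testis form Cyct was at 0. Among other enzymes that feed ubiquinone, Etfb, for a subunit of electron transfer flavoprotein, was highest at a mean of 221.4 TPM and Prodh lowest at 2.32 TPM. Of 11 regulators of respiration genes, Nrf1 was highest at 26.5 and 31.8 TPM. The coactivators Ppargc1a and Ppargc1b were low, at means of 1.60 ± 0.23 and 0.66 ± 0.17 TPM (SD, n = 2).

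The promoters of the members were searched for motifs of factors known to act on respiration genes, in the 300 bases around each start held in the RefSeq table (GRCm38.p6), from 250 before to 50 after. There were 93 promoters for 87 of the 106 members, and 19 members had no entry. The NRF1 motif, searched like the others as exact letters on both strands, was found in 22 of 93 promoters, or 23.7%, against 4.60% of all 32851 promoters and 12.3% of the 5412 promoters of genes past the filter on low values. The YY1 motif AANATGGCG was found in 14.0%, against 2.38% and 6.49%. The ETS motif CCGGAAGT, which GABP binds, was found in 9.68%, against 3.89% of all promoters and 10.4% of those of genes past the filter. At least 1 of these 3 motifs was in 41 of 93 promoters, or 44.1%, against 10.0% and 26.5%. CCAAT was found in 41.9%, against 37.4% and 39.9%, and TATAAA in 10.8%, against 13.6% and 7.17%. Median GC content was 59.0% for members, 52.7% for all promoters and 60.7% for genes past the filter. A match is a description of the sequence and not evidence of binding.

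In 12 members an NRF1 motif and its 15 flanking bases lay wholly before the RefSeq start. Of the 6 of these with the highest mean TPM, the windows below are the 4 that also lay wholly before the GENCODE start. Each is 40 bases in the sense of the gene, in GRCm38, with the NRF1 motif in capitals and 15 bases on either side. The distance given is that of the first base of the motif from the RefSeq start.
Ndufs5, chr4:123718260-123718299, minus strand, 98 bases before the start: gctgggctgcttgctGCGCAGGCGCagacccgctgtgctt
Sdhd, chr9:50603904-50603943, minus strand, 79 bases before the start: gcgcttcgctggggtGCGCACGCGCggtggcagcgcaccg
Cox6a1, chr5:115349096-115349135, minus strand, 162 bases before the start: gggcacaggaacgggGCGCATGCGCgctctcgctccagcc
Atp5h, chr11:115420036-115420075, minus strand, 141 bases before the start: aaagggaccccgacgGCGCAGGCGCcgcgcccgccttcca
The promoters belong to genes of complexes I, II, IV and V whose mean TPM ran from 154.4 for Ndufs5 to 610.3 for Cox6a1. Since they were picked by mean TPM, this range does not describe members with the motif in general. The motif was also in the promoter of Sdhaf3, the lowest assembly factor.

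**Figure D4:**
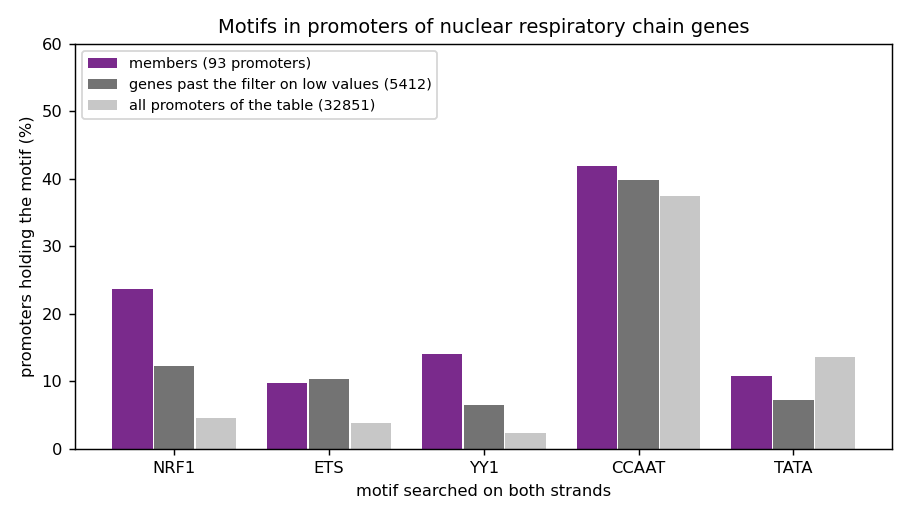
Percent of promoters that hold each motif, for members (purple), genes past the filter on low values (dark grey) and all promoters of the table (light grey). The bars for NRF1 (23.7%) and YY1 (14.0%) are higher for members than for both other sets, and the bars for ETS and CCAAT are close to those of genes past the filter.

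In members with a mean of 10 TPM or more, the deposited transcript tables showed the same leading transcript in both livers. In Cox18 and Cox10, which lie below that level, the leading transcript changed. Cox18-201 held 44.9% in replicate 1 and 14.3% in replicate 2, and Cox18-202 held 16.2% and 54.6%. Of the 92 members with a mean of 10 TPM or more, 67 had several annotated transcripts, and the leading one was the same in 67 of 67. It held under 60% of the gene's TPM in 15. For 8 members the leading transcript had no annotated coding sequence or was marked for decay. In Ndufa5, a subunit of the matrix arm of complex I, protein-coding transcripts held only 4.75% of the TPM, at 9.08 and 9.20 TPM. In Atp5j, a subunit of the outer stalk of ATP synthase, a transcript with a retained intron held 76.0% ± 0.6 (SD, n = 2). In Atp5f1, the b subunit of that stalk, a transcript marked for nonsense-mediated decay held 69.4% ± 1.0. In total, 9 of 92 members had under 50% of their TPM on protein-coding transcripts. The matching shares over all genes were not computed, so these counts of transcripts do not set the members apart. Ndufv3, a complex I subunit with a long and a short form, was present almost wholly as the short transcript of 485 bases, at 95.4% ± 0.01 of its TPM. The long transcript of 1537 bases held 4.18% ± 0.02.

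Levels of the members were close in the 2 livers. Among the 92 members with a mean of 10 TPM and 50 summed counts, 0 differed by 1.5 times or more, against 0.755% of all 5564 genes past the same filter. With so small a share over all genes, a count of 0 among 92 does not set the members apart. The ratio, as log2 of TPM plus 1 in replicate 2 over replicate 1, ranged from -0.19 to 0.32 among members. Its median was 0.018, against 0.093 over all genes, and 63.0% of members were higher in replicate 2, against 76.3% of all genes. The sign of this median depended on the scaling: it was -0.036 with FPKM, -0.025 with TPM rescaled without globin genes and -0.095 with CPM and TMM factors, where 38.0%, 43.5% and 8.70% of members were higher in replicate 2. Under these scalings all genes had medians of 0.042, 0.053 and -0.017, so the members stayed about 0.08 below all genes. A difference of 1.1 times or more was seen in 6 members higher in replicate 2, against 36.4% of all genes, and in 2 lower, against 4.83%. The 3 largest ratios upward were 0.32 for Ndufaf6 and 0.18 each for Ndufaf7 and Ndufs1. Ndufaf6, an assembly factor of complex I, was at 19.2 and 24.2 TPM, Ndufaf7, another, at 10.3 and 11.8 TPM, and Ndufs1 at 89.0 and 101.0 TPM. The 3 largest downward were -0.19 for Atp5l, -0.16 for Ndufb4 and -0.11 for Cox16, all of which share sequence with another listed gene. Cox16, an assembly factor of complex IV, was at 68.4 and 63.2 TPM. The 4 subunits of complex II were all higher in replicate 2, with a median ratio of 0.11, but 2 of 4 were with CPM and TMM factors. With 1 library per liver, the spread between animals and that between libraries cannot be told apart.

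The ratio moved with transcript length in members as in other genes. In the 37 members with an effective length under 500 bases the median ratio was 0.002, and in the 55 longer ones 0.057. Over all genes past the filter the medians were -0.013 for the 342 short genes and 0.098 for the 5222 long ones. Spearman's rho of ratio and length was 0.40 over the 92 members and 0.33 over the 5564 genes, a description across genes of the same 2 libraries. The part of length in the ratios of single members was not tested.

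**Figure D5:**
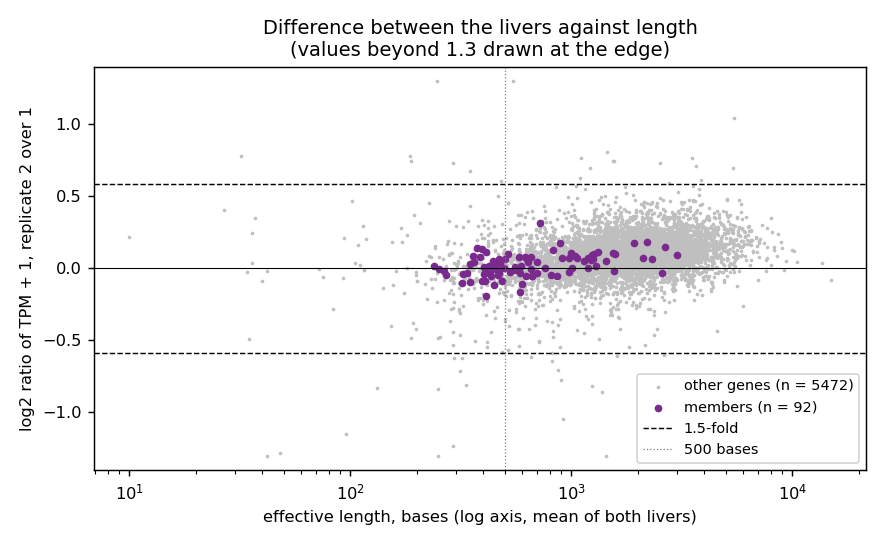
Log2 ratio of TPM plus 1 in replicate 2 over replicate 1 against effective length in bases on a logarithmic axis, for the 92 members (purple) and 5472 other genes past the filter (grey), with dashed lines at 1.5 times and a dotted line at 500 bases. All members lie between the dashed lines. Members range across short and long genes, with a median effective length of 607 bases over all 106 members against 1740 bases over all genes past the filter.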

How the data were processed

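Per the labels' protocols, livers were extracted with mirVana and 10 ng of RNA longer than 200 nucleotides entered a Smart-seq type protocol with ERCC spike-ins. For each library the authors deposited a table of genes and one of transcripts, with mm10 and GENCODE M4 named in the deposited file description. Which aligner and counter were run, and with which strand setting, was not stated there. Expected counts, not rounded, TPM and FPKM are the authors' deposited values, and the spike-ins are among the rows over which TPM was scaled. The percent of a gene's TPM held by each transcript was deposited too, per the file headers.

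Symbols, positions, exons and transcript sequences came from GENCODE M21 and promoters from RefSeq, both on GRCm38. The members and the gene lists were chosen with earlier results of these data known. The tables were read with Python 3.11.15 and pandas 2.3.3, and TMM factors came from edgeR 4.0.16. Ratios used log2(TPM + 1) over genes with a mean of 10 TPM and 50 summed counts, so fold changes of low genes are understated. The ratio script was tested on simulated data. Values are given in both livers for the 3 highest and lowest members of a complex, all of complex II, all paralogues and the 3 largest ratios each way; other members are given by range and count, and any further member named was chosen after its values were seen. With 2 libraries of 1 group no test was made, and the SDs cover the spread between these 2 samples, which may be technical. Poisson intervals are at 95% and, like the limit of 3 counts, cover counting error only, since amplified reads are not independent. Alternatives were other scalings, pseudocounts, filters and each library alone.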

Additional observations from a re-analysis of the deposited data

Results flagged for a closer look

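Rows that the symbol rule left out, or that carry no symbol of the families, held signal above the limit that a count of 0 allows. Among 12 rows with a fitting symbol but a pseudogene annotation or a -ps name, 4 had more than 3 reads in both livers. Ndufb4c was listed at 252.5 and 234.8 TPM, Cox6c2 at 6.55 and 6.77 TPM, Ndufs6b at 0.68 and 1.24 TPM, and Ndufab1-ps at 0.41 and 0.55 TPM. Of the pseudogene rows that share over 20% of a member's 100-base windows, Gm10221, a copy of Atp5l on chromosome 5, was listed at 602.9 and 567.7 TPM. Gm10175, a copy of Atp5g2, was at 137.3 and 122.6 TPM, Gm10039, a copy of Atp5g1, at 64.89 and 53.22 TPM, and Gm4459, a copy of Ndufab1, at 29.8 and 32.6 TPM. Whether these reads arose from the pseudogene or from the member was not tested.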

How the results depend on the processing

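Of 59 alternatives for medians and shares that kept both livers, 29 moved the value by no more than the SD between the livers and 30 by more. With n = 2, leaving out 1 liver moves a mean by less than that SD whatever the data, so those values are given as ranges only. No paired analysis was possible because there was 1 group. With 1 liver left out, medians ranged from 165.8 to 168.1 TPM for complex I, 140.7 to 153.4 for II, 348.5 to 357.7 for III, 307.2 to 318.9 for IV, 382.4 to 385.6 for V and 19.21 to 24.16 for assembly factors. TPM rescaled without globin genes raised the medians of complexes I to V to 273.8, 241.0, 579.0, 513.5 and 629.7 TPM, that of assembly factors to 35.5 TPM, and the members' median log2 ratio became -0.025. With FPKM the medians of complexes I, III, IV and V were 171.3, 362.4, 321.4 and 394.1 and the ratio -0.036, and with CPM and TMM factors the ratio was -0.095. Posterior-mean TPM gave 164.6 for complex I, 377.9 for complex V, and family shares of 99.92% for Cox4i1, 99.98% for Cox7b and 99.96% for Cox8a. With expected counts, shares were 99.85% for Cox6a1, 75.92% for Cox7a2, 98.99% for Ndufa4 and 51.9% for Atp5g3. Members at 1 TPM or more in both livers gave 424.4 TPM for complex IV, which then led the order, and a posterior SD of 5% or less gave 390.7 TPM for complex V. With no filter, 1 member differed by 1.5 times. Chosen after seeing the data were protein-coding transcripts only, which gave 159.3, 345.1, 210.6 and 351.7 TPM for complexes I, III, IV and V and 13.32 TPM for assembly factors. Also chosen then were complex IV without tissue paralogues, at 506.4 TPM, and the sums with pseudogene rows. Adding the TPM of Ndufb4c to that of Ndufb4 put complex I at 174.9 TPM. Adding that of the pseudogene partners put complex V at 430.6 TPM and Atp5g3 at 42.05% of its family. These sums joined TPM scaled to unlike lengths. Depth limits Cox4i2, Cox8b and other members with under 20 reads.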
